A study of Canis lupus familiaris with 13 samples.

Results

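The genes described here encode the plasminogen activation system and a set of matrix-degrading proteases with their inhibitors. They were chosen by symbol: PLAU, PLAUR, PLAT, and SERPINB2 for the urokinase system, MMP2, MMP12, and MMP14 for the matrix metalloproteinases, and TIMP1 and TIMP3 for the metalloproteinase inhibitors. Of the 9 symbols, 8 were measured, out of 43427 symbols in the counts, and PLAUR, the urokinase receptor gene, is not analysed here. All 8 passed the filter on low counts, which kept 20118 genes. PLAU was picked because it was among the larger early rises shared by the tumors, so the differences between the early and pretreatment biopsies chose the set and are given below as a description, with no test.

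Plasminogen is a circulating zymogen that becomes the protease plasmin when urokinase (PLAU) or tissue plasminogen activator (PLAT) cleaves it. Plasmin dissolves fibrin and degrades matrix proteins, and serpins such as the PAI-2 protein of SERPINB2 inhibit the activators. Matrix metalloproteinases cut collagens, elastin, and basement membrane, several of them after their propeptide is removed by another protease, and the TIMP proteins block their active site. In wounds and tumors these genes are known to be used by macrophages, fibroblasts, endothelial cells, and migrating epithelium.

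The 13 strand-specific RNA-seq libraries came from biopsies of 4 spontaneous tumors in 3 companion dogs treated by intratumoral injection of IMAX, a complex of the polymer 2E′, paclitaxel, and a cyclic dinucleotide. Dog RV had a soft tissue sarcoma, biopsied mid mass before treatment, 2 days after the second dose, and 2 weeks after the third dose, the last at the injection site and at an adjacent site. Dog CL had a cranial and a caudal mammary tumor, each biopsied before treatment and 1 week and 1 month after the second dose, and dog BM had a mammary tumor of the left 5th gland, biopsied before treatment and 1 week and 3 weeks after the second dose. The groups are therefore before (n = 4), early (n = 4, at 2 days in RV and otherwise at 1 week), and late (n = 5, 2 weeks to 1 month). There was no untreated dog, so time and repeated biopsy cannot be told apart from treatment. Late tissue came from the surgery that removed the tumor, and late RV tissue followed 1 more dose than the other late tissue. Apart from the late RV sites there was 1 library per tumor and time point, and the cranial and caudal CL tumors share a dog.

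Library totals ran from 11622444 to 29931125 counts. Levels are given as CPM (counts scaled to library size after TMM normalization), in which 3 counts correspond to 0.0833 to 0.262 CPM. The RV 2-day library stood apart: 58.0% of symbols had at least 10 counts in it, against 36.3% to 49.8% in the other 12. Histology of that biopsy did not identify tumor cells with certainty, per the study. Genes in gene-dense regions were low relative to genes in sparse regions in this library (a log2 difference of -1.44), in the caudal CL libraries before treatment and at 1 month (-1.22 and -0.92), and in the cranial CL library at 1 month (-0.35), against 0.08 to 1.22 in the other 9. Values fitted without the RV 2-day library, or without the 3 CL libraries, are given beside the results that turn on them. Without the 3 CL libraries, neither CL tumor keeps a late library and caudal CL keeps no pretreatment library. Epithelial keratin and cadherin markers summed to 2945 to 4932 CPM in the cranial CL tumor but to 302 to 690 CPM in the caudal one, and to 190 CPM in BM at 3 weeks against 3185 before. Markers of the labelled carcinoma were thus low in those libraries.

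**Figure D1:**
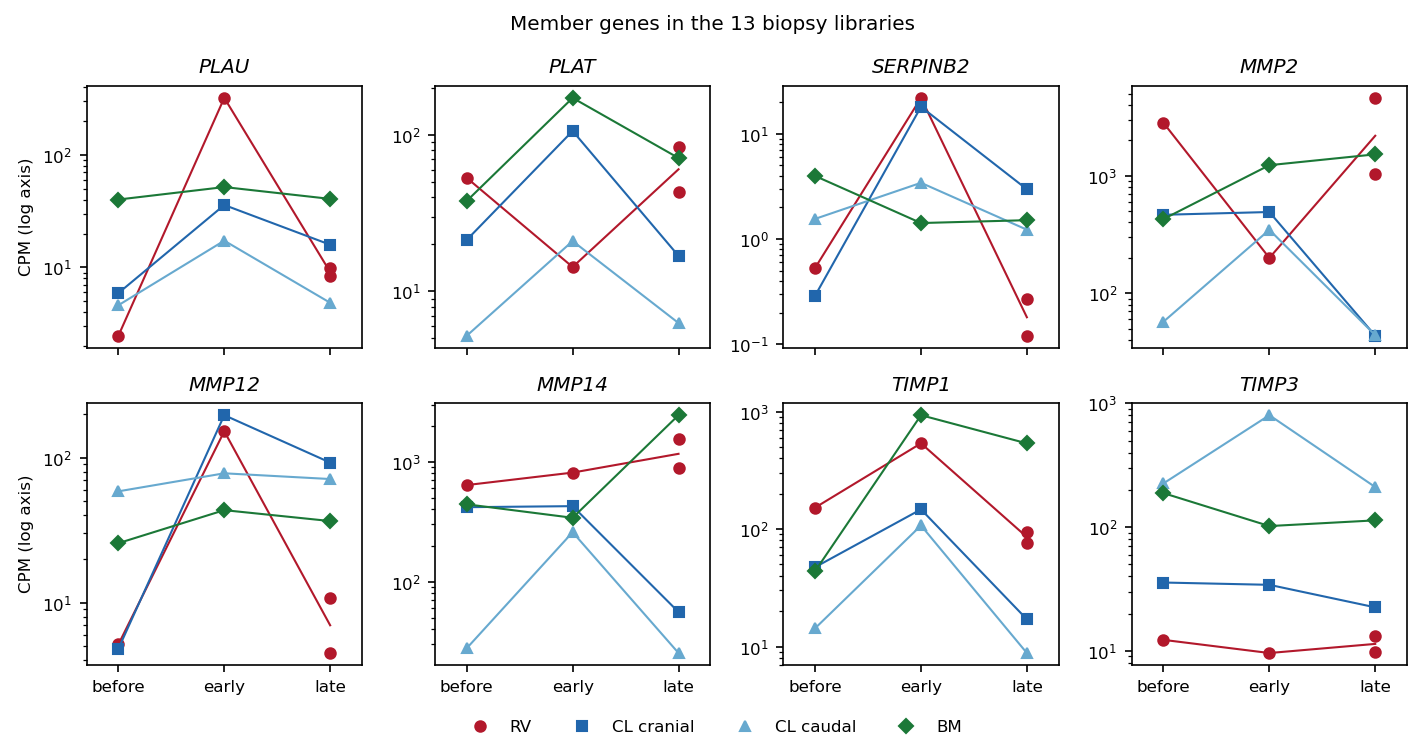
CPM of each member (log axis) before, early, and late after treatment; each point is 1 library, the colors and symbols are the 4 tumors, and the lines join libraries of a tumor, passing through the geometric mean of the late RV sites. PLAU, MMP12, and TIMP1 were higher early than before in each tumor, and TIMP3 kept the 4 tumors apart at every time.

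The activators were described first. PLAU, which encodes urokinase, lies on chromosome 4 at 25061896 to 25066649 of CanFam4 (RefSeq UU_Cfam_GSD_1.0). In RV it went from 2.47 CPM before treatment to 322 CPM at 2 days, and stood at 8.34 and 9.92 CPM at the 2-week injection and adjacent sites. The 95% exact Poisson interval, which covers counting error only, was 1.74 to 3.40 CPM for the first of these and 313 to 330 CPM for the second. In the cranial CL tumor PLAU was at 5.91, 35.9, and 15.9 CPM before, at 1 week, and at 1 month. The caudal CL tumor held 4.61, 17.3, and 4.84 CPM at the same times. BM was the highest tumor before treatment and moved least, with 40.1, 51.8, and 40.7 CPM before, at 1 week, and at 3 weeks.

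The early library was therefore the highest of each tumor, although early and pretreatment levels overlapped between tumors because BM started above the early CL values. On the log2 scale the early differences of PLAU were 6.97 in RV, 2.58 in cranial CL, 1.88 in caudal CL, and 0.37 in BM. The fit with tumor as a block gave an early log2 fold change of 3.24 (SE 0.99), a 9.47-fold difference. Without the RV 2-day library it was 1.81, so that library carried much of the size. In this library neutrophil markers summed to 7013 CPM against 74.5 before, epidermal markers to 2974 against 72.4, and macrophage markers to 1348 against 428, and their part in the PLAU value was not tested. In bulk tissue, fewer cells of a type and less RNA per cell cannot be told apart.

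PLAT, the gene of tissue plasminogen activator, lies on chromosome 16 at 24203090 to 24229785. It was at 21.3, 106, and 16.9 CPM in cranial CL, at 5.20, 21.0, and 6.28 CPM in caudal CL, and at 37.9, 173, and 71.2 CPM in BM, each before, early, and late. RV went the other way, with 53.2 CPM before, 14.3 CPM at 2 days, and 43.3 and 84.0 CPM at the late sites. The early log2 differences were thus 1.99 to 2.31 in the mammary tumors and -1.89 in RV, the tumor in which PLAU differed most. The fitted early value was 1.61 (SE 0.67), and 2.17 without the RV 2-day library. Fibroblast markers summed to 23045 CPM in RV before treatment and to 2291 CPM at 2 days. In the CL tumors their sum was lower at 1 week than before, where PLAT was higher (7976 against 13844 CPM cranial, 1789 against 2114 CPM caudal). In BM both rose early, but late the sum rose from 28409 to 101908 CPM as PLAT fell. Over the 13 libraries PLAT correlated with the fibroblast and endothelial sums with Pearson r of 0.70 and 0.71. These are descriptions over libraries that share tumors, and the part of these cells in the PLAT values was not tested.

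SERPINB2 encodes the activator inhibitor PAI-2 and lies on chromosome 1 at 13332245 to 13348711. It was sparse outside the early RV and cranial CL libraries. RV held 8 counts before treatment (0.533 CPM), 390 at 2 days (21.9 CPM), and 4 and 2 at the late sites. The value at the adjacent site, 0.121 CPM, has an exact Poisson interval of 0.0146 to 0.437 CPM and lies under the level of 3 counts. Cranial CL held 6 counts before, 448 at 1 week, and 34 at 1 month (0.290, 18.0, and 2.97 CPM). Caudal CL moved from 1.56 to 3.42 and 1.23 CPM, whereas BM held 3.97 CPM before and 1.42 and 1.51 CPM afterward. The early difference was therefore positive in 3 of 4 tumors, with a fitted value of 3.14 (SE 1.41) that was 1.21 without the RV 2-day library and 4.40 without the 3 CL libraries low in gene-dense regions. The early RV and cranial CL libraries, highest for SERPINB2, were also highest in neutrophil markers (7013 and 4948 CPM). Cranial CL before treatment, however, held 4067 CPM of neutrophil markers beside 0.290 CPM of SERPINB2. From before to early the neutrophil sum fell from 2224 to 431 CPM in caudal CL, where SERPINB2 rose. In BM it rose from 704 to 1244 CPM, where SERPINB2 fell. The epidermal sum moved from before to early in the direction of SERPINB2 in each tumor, but not in size. It was highest in BM before treatment (3540 CPM), beside 3.97 CPM of SERPINB2. At 1 week it was 2143 CPM in caudal CL and 1463 CPM in cranial CL, beside 3.42 and 18.0 CPM of SERPINB2. Over the 13 libraries SERPINB2 followed the epidermal marker sum with r = 0.75 and the neutrophil sum with r = 0.65, and the part of neither was tested.

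**Figure D2:**
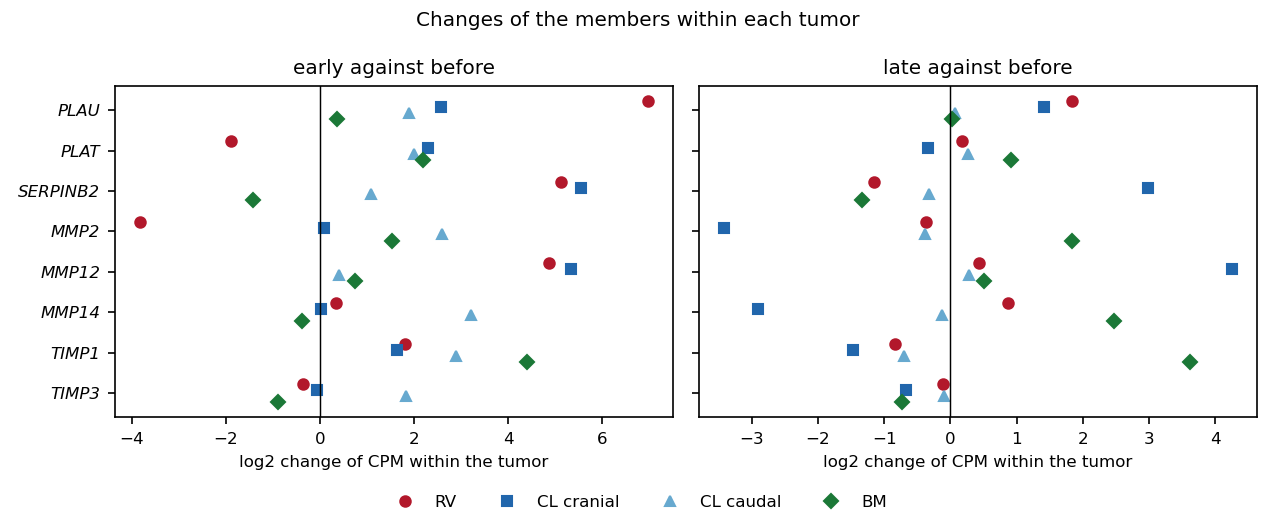
Difference of log2 CPM from the pretreatment library of the same tumor, early (left) and late (right), with 1 point per tumor and the late RV sites averaged. Early points of PLAU, MMP12, and TIMP1 all lie to the right of 0, PLAT and MMP2 have RV alone on the left, and the late points of PLAU in BM and caudal CL lie at 0.02 and 0.07.

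Among the proteases, MMP12, the macrophage metalloelastase gene on chromosome 5 at 29059239 to 29073925, was nearest to SERPINB2 of the members (Pearson r = 0.86 over 13 libraries). It was at 5.13 CPM in RV before treatment, 152 CPM at 2 days, and 4.48 and 10.8 CPM late. Cranial CL went from 4.79 to 197 CPM and remained at 92.6 CPM at 1 month. The 2 other tumors had more MMP12 from the start and moved less, with 58.6, 78.1, and 71.3 CPM in caudal CL and 25.7, 43.5, and 36.5 CPM in BM. The fitted early value was 2.94 (SE 1.01), 1.59 without the RV 2-day library, and 4.11 without the 3 CL libraries. Macrophage markers summed to 300 to 742 CPM before, 1220 to 3458 CPM early, and 368 to 1374 CPM late, with 5 of the 11 markers higher early in all 4 tumors, and r between MMP12 and their sum was 0.68. The macrophage sum was largest in BM at 1 week, where MMP12 was lowest of the early libraries, and its part in the MMP12 values was not tested.

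MMP2 encodes gelatinase A, a protease of stromal cells, and lies on chromosome 2 at 59747357 to 59772363. RV held 2817 CPM before treatment, 200 CPM at 2 days, and 1042 and 4597 CPM at the late injection and adjacent sites. In cranial CL the level was 465, 491, and 43.4 CPM, in caudal CL 57.2, 346, and 43.9 CPM, and in BM 428, 1229, and 1520 CPM. No time trend was shared: the early log2 difference was -3.82 in RV, 0.08 in cranial CL, 2.60 in caudal CL, and 1.52 in BM. The fitted early value of 0.71 (SE 1.10) became 1.35 without the RV 2-day library and -0.44 without the 3 CL libraries low in gene-dense regions. MMP2 followed the fibroblast marker sum with r = 0.73, and the RV 2-day library was low in both.

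MMP14 encodes the membrane-anchored MT1-MMP, known to activate the MMP2 proenzyme, and lies on chromosome 8 at 3306779 to 3317137. RV held 640, 813, and then 881 and 1544 CPM, and BM held 442, 341, and 2453 CPM. Cranial CL was at 418 and 426 CPM before and at 1 week and at 55.7 CPM at 1 month. Caudal CL was at 27.8, 258, and 25.3 CPM. The low CL values are those of the 3 libraries low in gene-dense regions, and MMP14 sits at the 92.6 percentile of gene density, above the 23.0 to 70.4 of the other members. The part of that difference in these values was not tested. The RV 2-day library was lowest in gene-dense regions (-1.44) and held 813 CPM, against 640 CPM before. BM at 3 weeks was highest in them (1.22) and held the most MMP14, 2453 CPM. The part of gene density in either value was not tested. The fitted early value of 1.04 (SE 0.98) fell to 0.04 without these 3 CL libraries, among them the caudal CL pretreatment library. It was also 0.04 without the whole caudal CL tumor, where the early difference was large. In a fit adjusted for gene density and gene length it was 0.82.

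MMP14 and MMP2 were correlated over the libraries (r = 0.86), although their ratio moved in some of them. In RV at 2 days the log2 ratio of MMP2 to MMP14 moved by -4.16 from its pretreatment value, and at the late injection and adjacent sites by -1.90 and -0.56. In the CL tumors it moved by -0.62 and 0.05 at 1 week and by -0.25 and -0.51 at 1 month, caudal tumor first. In BM this ratio was 1.90 above its pretreatment value at 1 week and 0.64 below it at 3 weeks. At 3 weeks MMP14 reached its highest level, in the library highest in gene-dense regions (1.22). The part of that was not tested. A ratio alone shows unequal change of the 2 genes, and the levels show which of them moved. In RV at 2 days MMP2 went from 2817 to 200 CPM and MMP14 from 640 to 813 CPM. In BM at 1 week MMP2 went from 428 to 1229 CPM and MMP14 from 442 to 341 CPM.

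Of the inhibitors, TIMP1 (chromosome X, 41404449 to 41408018), which encodes a secreted inhibitor of most matrix metalloproteinases, varied least between tumors of the 3 members that were higher early in each. RV went from 152 to 537 CPM at 2 days and stood at 76.7 and 95.2 CPM late. Cranial CL went from 47.3 to 147 and then 17.0 CPM, and caudal CL from 14.3 to 107 and then 8.80 CPM. BM showed the largest difference, from 43.8 to 932 CPM at 1 week, and still held 536 CPM at 3 weeks. The late libraries of RV and CL were thus below their pretreatment libraries and the BM library was above. The fitted early value was 2.34 (SE 0.69), and it stayed between 2.03 and 2.74 in the alternatives run, including 2.36 without the RV 2-day library. In BM, fibroblast markers rose in sum from 1298 to 28409 and 101908 CPM and endothelial markers stood at 154, 1574, and 236 CPM, whereas in caudal CL the fibroblast sum was 2114, 1789, and 1850 CPM beside its early TIMP1 value. The part of these cells was not tested.

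Relative to MMP14 in the same library, TIMP1 was higher early by 1.47 in RV, 1.60 in cranial CL, and 4.78 in BM on the log2 scale, and lower by 0.32 in caudal CL. MMP14 sits at the 92.6 percentile of gene density and TIMP1 at 70.4. The RV 2-day library, the caudal CL pretreatment library (MMP14 at 27.8 CPM), and both late CL libraries were low in gene-dense regions. The part of that in these ratios was not tested. Late, this log2 ratio was 1.45 and 1.95 below the pretreatment value at the RV sites, 0.56 below in caudal CL, and 1.44 and 1.14 above in cranial CL and BM. Relative to MMP2, TIMP1 was higher early in each tumor, by 5.64 in RV, 2.88 in BM, 1.55 in cranial CL, and 0.30 in caudal CL. Late, that ratio was above its pretreatment value by 1.95 in cranial CL, 1.78 in BM, and 0.45 at the RV injection site, and below it by 0.31 in caudal CL and 1.38 at the RV adjacent site.

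TIMP3, which encodes an inhibitor held in the extracellular matrix, lies on chromosome 10 at 31684823 to 31738972 and was ordered by tumor and not by time. RV held 9.60 to 13.2 CPM over its 4 libraries. Cranial CL held 35.6, 34.1, and 22.5 CPM, BM 188, 102, and 113 CPM, and caudal CL 225, 802, and 210 CPM. The ranges of the 4 tumors did not overlap, which was so for 15 of 20118 genes (0.0746%). The early difference of TIMP3 was 1.83 in caudal CL and -0.88 to -0.06 in the other 3 tumors, with a fitted value of 0.20 (SE 0.46).

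Counted together, 3 of the 8 members (PLAU, MMP12, and TIMP1) were higher early in all 4 tumors, beside 10.8% of all genes tested. The median early log2 fold change was 1.97 over the members and 0.25 over all genes. Since early values chose the set, nothing is read from this. In the same comparison 1 of 20118 genes passed the threshold of an adjusted p under 0.05 (0.00497%). From early to late, the same 3 members were lower in all 4 tumors, beside 17.4% of all genes. The members' median late against early was -1.60, with PLAU at -2.81 (SE 0.87), SERPINB2 at -3.59 (SE 1.22), TIMP1 at -2.42 (SE 0.66), and MMP12 at -2.0 (SE 0.86), beside -0.35 over all genes. In that comparison 2 genes passed the threshold, both lower (0.00994%). Without the RV 2-day library these were -0.97 for PLAU, -1.86 for SERPINB2, -2.45 for TIMP1, and -0.69 for MMP12, so that library carried much of the fall of PLAU, SERPINB2, and MMP12. Without the 3 CL libraries low in gene-dense regions they were -3.59, -5.62, -1.62, and -3.43 in the same order, with late libraries from RV and BM only. This comparison shares the early libraries with the choice of PLAU and is also given without a test.

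Whether the members stayed away from the pretreatment level was asked of the late libraries, which the choice did not use. These comparisons share the pretreatment libraries with the early ones. By edgeR's quasi-likelihood test, with p-values adjusted over all genes after Benjamini and Hochberg, 0 of 8 members passed, beside 0 of 20118 genes (0%). Without adjustment 805 genes (4%) had a p under 0.05, none of them a member, and DESeq2 called 7 genes, no member among them. The fitted late values were 0.43 (SE 0.81) for PLAU, 0.40 (SE 0.61) for PLAT, -0.44 (SE 1.16) for SERPINB2, -0.07 (SE 1.05) for MMP2, and 0.94 (SE 0.87) for MMP12. MMP14 had 0.66 (SE 0.99), TIMP1 -0.08 (SE 0.67), and TIMP3 -0.37 (SE 0.42). The adjusted p of the members in edgeR lay between 0.973 and 0.998. With standard errors of this size, a p past the threshold would need a difference of several fold, and a return to the pretreatment level was not shown.

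The late direction was shared by the 4 tumors for 3 members. With the late RV sites averaged, PLAU and MMP12 were higher late than before in each tumor, beside 7.13% of all genes, and TIMP3 was lower in each, beside 8.04%. The RV sites disagreed for MMP12, at 4.48 CPM (injection) and 10.8 CPM (adjacent) against 5.13 CPM before. They disagreed as well for TIMP3, at 9.77 and 13.2 CPM against 12.3 CPM before. For PLAU the log2 differences were 1.84 in RV, 1.41 in cranial CL, and 0.07 and 0.02 in caudal CL and BM, so that the last pair lies at its pretreatment level. With DESeq2's size factors in place of TMM, or with the RV injection site alone, 1 member and not 2 was higher in each tumor. For MMP12 cranial CL stood out with 4.24, against 0.28 to 0.51 elsewhere. TIMP3 was lower by 0.10 and 0.11 in caudal CL and RV and by 0.66 and 0.73 in cranial CL and BM.

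The late RV sites differed from each other by more in these genes than over all genes, with a median absolute log2 difference of 0.78 over the members and 0.48 over all genes tested. MMP2 was 2.14 higher on the log2 scale at the adjacent site than at the injection site, MMP12 1.26 higher, PLAT 0.95 higher, and MMP14 0.81 higher. The fibroblast marker sum was 13709 CPM at the injection site and 30081 CPM at the adjacent site, and its part was not tested. These are 1 library each, with no replicate check. The late RV values of MMP2 thus lay on both sides of the pretreatment level.

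**Figure D3:**
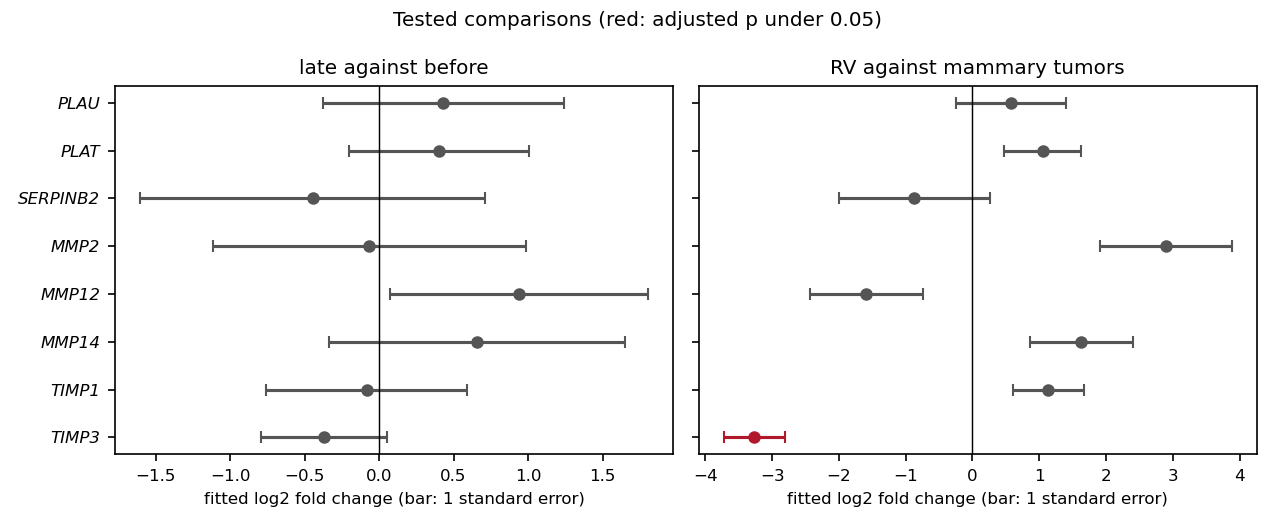
Fitted log2 fold change of each member with 1 standard error, late against before (left) and RV against the mean of the 3 mammary tumors (right), from the edgeR fit with tumor and time as factors. In red is the value past an adjusted p of 0.05: TIMP3, at -3.26.

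Levels between tumors, averaged over times, did not enter the choice of the set and were tested in the same fit. RV is 1 sarcoma in 1 dog, so tumor type and dog cannot be told apart, and libraries of 1 mass are not separate animals, so the p-values measure only the spread between libraries. TIMP3 was lower in RV than in the mammary tumors, with a log2 fold change of -3.26 (SE 0.46, 9.61-fold), with an adjusted p of 0.00274 in edgeR. It was the 1 member called of 8, beside 7.21% of all genes tested, made up of 4.15% higher and 3.06% lower in RV. All RV libraries were below all mammary libraries for TIMP3, as for 320 genes (1.59%). The adjusted p lay between 9.83e-15 and 0.0231 in the alternatives, the largest of them without the 3 CL libraries low in gene-dense regions. The mammary tumors also differed among themselves, and the cranial CL levels lay nearer to RV than to the caudal tumor of the same dog.

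The other members did not pass. MMP2 was higher in RV by 2.89 (SE 0.99, adjusted p = 0.105 in edgeR), PLAT by 1.05 (SE 0.58, adjusted p = 0.307), MMP14 by 1.63 (SE 0.77, adjusted p = 0.234), TIMP1 by 1.14 (SE 0.53, adjusted p = 0.230), and PLAU by 0.58 (SE 0.82, adjusted p = 0.729). MMP12 was lower by 1.59 and SERPINB2 by 0.87, with edgeR adjusted p of 0.292 and 0.701. These calls depend on the libraries used. Without the 3 CL libraries low in gene-dense regions MMP2 was at 1.34, MMP14 at 0.54, PLAT at 0.41, and MMP12 at -0.55. Without the RV 2-day library, edgeR called PLAT (1.67, adjusted p = 0.00419), MMP2 (3.62, adjusted p = 0.00673), and MMP12 (-2.85, adjusted p = 0.0182) as well as TIMP3, beside 4435 genes in all, and the sign of PLAU turned to -1.18 (adjusted p = 0.108).

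**Figure D4:**
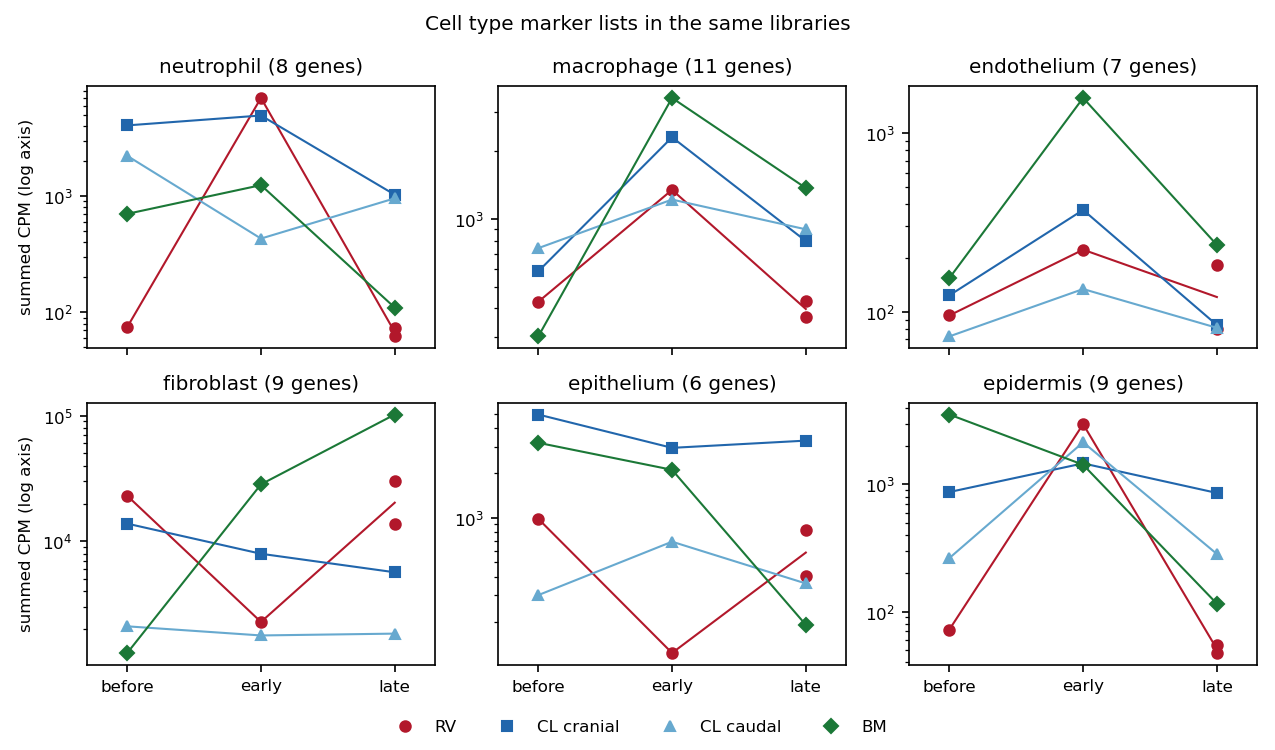
Summed CPM (log axis) of 6 marker lists in the same 13 libraries, with tumors, times, and lines as for the members. Macrophage and endothelial sums were highest early in each tumor, the neutrophil sum was highest in RV at 2 days, the epidermal sum went from 72.4 to 2974 CPM in RV, and the fibroblast sum fell to 2291 CPM in RV at 2 days and reached 101908 CPM in BM at 3 weeks.

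The genes most like PLAU over the 13 libraries, by Pearson r of log2 CPM, were RAMP3 (0.94), a receptor-modifying protein gene, SEMA7A (0.93), a semaphorin gene, FAS (0.93), the death receptor gene, STIM1 (0.92), a calcium sensor gene, and SERPINA1 (0.92), which encodes alpha-1-antitrypsin. RAMP3 was sparse, with 0 to 271 counts. SEMA7A was at 4.26 CPM in RV before treatment and 241 CPM at 2 days, and at 22.4 to 41.4 CPM in BM. Without the RV 2-day library r was 0.86 to 0.89 for these genes over the other 12 libraries. Of the members, SERPINB2 was nearest to PLAU, with r = 0.72 (rank 1036 of the genes tested), then TIMP1 with 0.63 and MMP12 with 0.57. PLAT stood at 0.26, and MMP2 and TIMP3 at 0.01 and -0.05. Without the RV 2-day library this order was not kept, with r of 0.58 for PLAT, 0.57 for SERPINB2, 0.55 for TIMP1, and 0.48 for MMP12. The members therefore did not share 1 pattern. SERPINB2 and MMP12 were highest in the early RV and cranial CL libraries. PLAU was highest in RV at 2 days, but its early cranial CL level of 35.9 CPM lay below the BM libraries (40.1 to 51.8 CPM). PLAT, MMP2, and MMP14 were low or little changed in RV at 2 days (r = 0.82 between MMP2 and PLAT).

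Around the members, 6 lists of related genes were read from the same fits. Of the 20 plasminogen system genes listed, 17 were tested, with a median early log2 fold change of 1.33, and of 22 matrix metalloproteinases 19 were tested, with 1.22. The 5 metalloproteinase inhibitors had a median of 0.90, the 18 ADAM and ADAMTS proteases 0.46, the 10 cathepsins and related genes 1.28, and the 10 genes of protease activation and docking 0.59, beside 0.25 over all genes. These medians include the members. Of the other genes of these lists, 0 passed the threshold early in edgeR. Their unadjusted p was under 0.05 for 2, 4, 0, 2, 5, and 3 genes of 14, 16, 3, 18, 10, and 10 in that order, beside 10.9% of all genes, and DESeq2 called 10 over the lists. The plasminogen list's median was 0.71 without the RV 2-day library. Late medians were 0.21, -0.02, 0.25, 0.18, 0.52, and 0.30 in the same order, with 0 genes called in edgeR or DESeq2 and an unadjusted p under 0.05 for 1 plasminogen gene and 1 metalloproteinase.

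**Figure D5:**
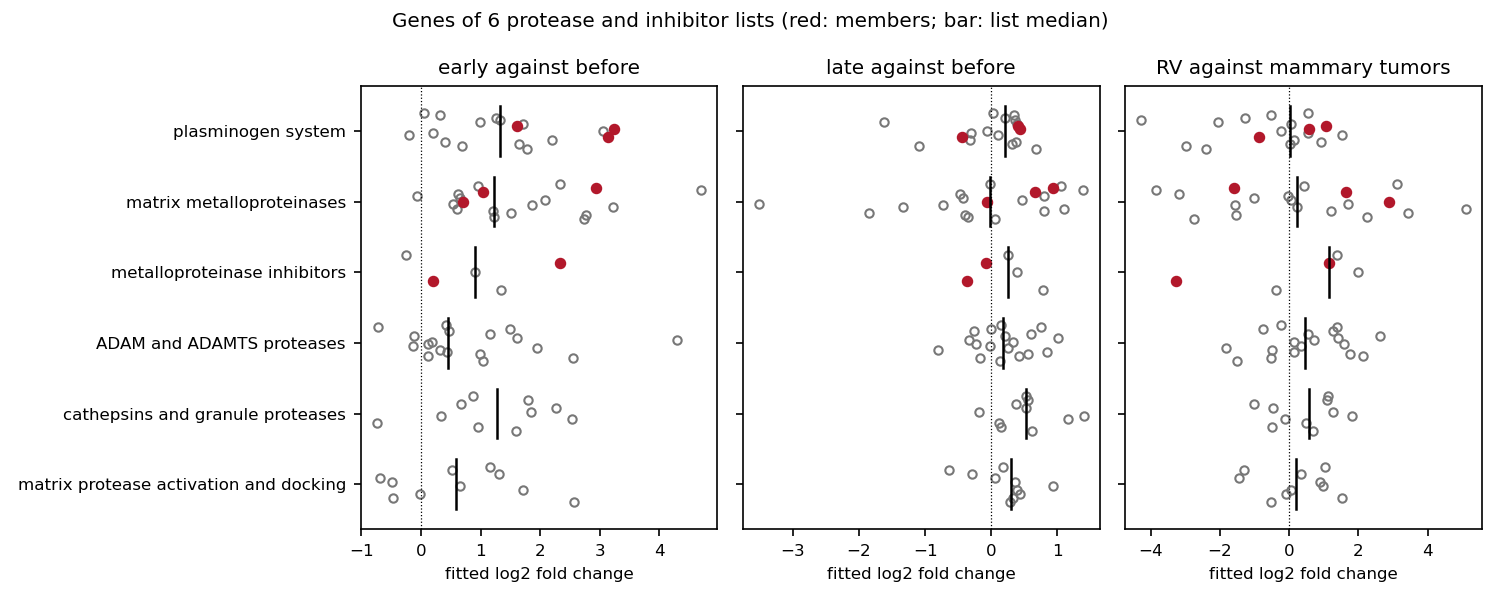
Fitted log2 fold change of each tested gene of the 6 lists, early and late against before and RV against the mammary tumors; red points are the members, open points the other genes, and the bars list medians. Early medians lie between 0.46 and 1.33 and late medians between -0.02 and 0.52.

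The named genes of these lists were those with the largest difference of 1 sign in all 4 tumors. ADAM8, a membrane protease of leukocytes, had an early value of 4.30 (SE 1.0, adjusted p = 0.161 in edgeR). It went from 1.53 to 191 CPM in RV, from 3.34 to 35.2 CPM in cranial CL, from 0.837 to 11.9 CPM in caudal CL, and from 10.4 to 14.0 CPM in BM, so that RV moved most and BM least, as for PLAU. PCSK6, a proprotein convertase, had 2.56 (SE 0.59, adjusted p = 0.154), and CTSH and CTSB, lysosomal cathepsins, had 1.85 (SE 0.41, adjusted p = 0.154) and 1.79 (SE 0.49, adjusted p = 0.217). MMP19 had 2.08, LRP1, the endocytic receptor that clears protease and inhibitor complexes, 1.71, ADAM15 1.49, and TIMP4 1.34, with edgeR adjusted p of 0.391 to 0.606. None of these passed. Unlike PLAU, CTSH was evenly moved, from 267 to 862 CPM in RV, 123 to 588 CPM in cranial CL, 40.9 to 119 CPM in caudal CL, and 106 to 394 CPM in BM.

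Late against before, KLKB1, which encodes plasma prekallikrein, had -1.62, the collagenolytic cathepsin gene CTSK 1.39, CTSS 1.15, MMP27 1.10, MMP11 1.05, ADAM33 1.01, and the hyaluronan receptor gene CD44 -0.64. Their adjusted p in edgeR was 0.973 and none passed. CTSK was at 77.9 CPM in BM before treatment, 383 CPM at 1 week, and 2597 CPM at 3 weeks. That last library was also highest in MMP14 and in gene-dense regions.

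Between RV and the mammary tumors 9 genes of the lists were called, TIMP3 among them, beside 7.21% of all genes. Their number was 28 without the RV 2-day library, 4 with the late RV sites summed, and 3 without the 3 CL libraries. Of the 10 alternatives run, TIMP3 was called in 10, MMP27 and PCSK5 in 9, ADAM28 in 8, MMP15 in 7, ST14, CTSH, and CD44 in 6, and ITGAV in 5. Higher in RV were MMP27 (5.10, SE 0.90, adjusted p = 0.00815 in edgeR), the membrane protease gene ADAM28 (2.62, SE 0.50, adjusted p = 0.0115), the convertase gene PCSK5 (1.52, SE 0.29, adjusted p = 0.0111), and CTSH (1.28, SE 0.32, adjusted p = 0.0379). Lower were the transmembrane metalloproteinase gene MMP15 (-3.19, adjusted p = 0.0295), ST14, the epithelial protease matriptase (-2.98, adjusted p = 0.0460), the integrin gene ITGAV (-1.45, adjusted p = 0.0171), and CD44 (-1.31, adjusted p = 0.0369). MMP27 was at 155, 214, and 203 CPM in RV before treatment and at the late sites but at 7.02 CPM at 2 days, and at 0.917 to 12.7 CPM in the mammary tumors. In these lists the RV 2-day library thus stood with the mammary libraries for MMP27, as it did for MMP2.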

How the data were processed

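RNA was measured in 13 tumor libraries. The authors deposited raw counts per gene symbol from strand-specific reads aligned to CanFam4.0 with Strand NGS; the counting rule is not given in the sources used here. Each column was matched to its sample by title. No genome was used here, so no sequence is shown, and coordinates come from RefSeq UU_Cfam_GSD_1.0 (98.0% of symbols matched). The members and lists were chosen with earlier results of these data known. Genes were filtered with filterByExpr (minimum count 10) and fitted in edgeR 4.0.16 (R 4.3.3) with TMM, glmQLFit, and glmQLFTest, with tumor and time as factors and Benjamini-Hochberg adjustment over 20118 genes (threshold 0.05). CPM within a tumor was compared as log2 with a prior count of 2. The ratios used the same log2 values, and marker sums used CPM with no prior count. Correlations with a marker sum were taken between the log2 CPM of the member and the log2 of the sum plus 1. Genes named from the lists were those past the threshold, or otherwise the 2 with the largest early and late difference of 1 sign in all 4 tumors. For likeness the 5 highest correlations were taken. The pairing comes from the tumor, since libraries of a tumor are biopsies of 1 mass; their deviations from the group means correlated with a mean r of 0.23 (before with early), 0.59 (before with late), and 0.19 (early with late). No library was a copy of another (the chi-square of counts between libraries, divided by its degrees of freedom, was 44.5 or more). Tested on simulated data for late against before on 20118 genes, edgeR recovered 95 of 200 genes changed by a log2 of 3 at the spread of these data, with 1 false call. The simulated counts were drawn gene by gene, with no shift shared by genes in dense regions. The false calls therefore do not cover such shifts between libraries. The common coefficient of variation was 0.67 and 7 residual degrees of freedom remained. Reads had no molecular identifiers, so Poisson intervals cover counting error only. Alternatives were DESeq2 1.42.0, other size factors, no filter, other or no blocks, summed or single late RV sites, a prior count of 0.5, and each tumor left out. After seeing the data, fits without the RV 2-day library, without the 3 CL libraries low in gene-dense regions, and with offsets for gene density and length were added. Python 3.11.15 with pandas 2.3.3 and matplotlib 3.10.9 was used for tables and figures.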

Additional observations from a re-analysis of the deposited data

Results flagged for a closer look

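MMP14 before treatment was at 4.80 log2 CPM in the caudal CL tumor, against 8.71 to 9.32 in the other 3 tumors. The gap took up 0.86 of the range of the 4 libraries. It was the 1 far value among 24 groups of a member and a time tested in this way, of which 1.2 would be picked by chance at 1 in 20. The same library was low in gene-dense regions, and the part of that in the MMP14 value was not tested.

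PLAT moved by -1.89 on the log2 scale from before to early in RV and by 1.99 to 2.31 in the 3 mammary tumors. MMP2 moved by -3.82 in RV and by 0.08 to 2.60 in the mammary tumors. These were 2 of 16 comparisons of a member between RV and the mammary tumors in which the tumors moved in opposite directions. The difference itself was not tested, and it rests on the RV 2-day library.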

How the results depend on the processing

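With 4 tumors, 1 library per tumor and time, and a coefficient of variation of 0.67, differences under several fold are within the error, and depth limits mainly SERPINB2, with under 10 counts in 4 libraries. The sign of 2 members turned early: MMP2 was at -0.44 without the 3 CL libraries low in gene-dense regions, -0.73 without the tumor block, and -0.23 without caudal CL, and TIMP3 at -0.46 without the 3 CL libraries and -0.44 without caudal CL. TIMP3 in RV against the mammary tumors was called in every alternative run.

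Late against before, MMP2 turned to 0.74 without the 3 CL libraries and ran from -0.83 to 0.62 with each tumor left out (0.05 without caudal CL, 0.62 without cranial CL). TIMP1 turned to 0.57 without the 3 CL libraries and 0.025 with the late RV sites summed, and ran from -0.98 to 0.41 with a tumor left out (0.06 without caudal CL, 0.39 without cranial CL). With a tumor left out, SERPINB2 ran from -1.26 to 0.22 and MMP14 from -0.41 to 1.45, each turning without BM. In RV against the mammary tumors, PLAU turned to -1.18 without the RV 2-day library and ran from -0.39 (without caudal CL) to 0.94 with a tumor left out, and SERPINB2 to 0.067 without the 3 CL libraries; 5 values newly passed the threshold, 3 of them without the RV 2-day library, with MMP2 in DESeq2 (adjusted p = 0.00323) and TIMP1 without BM (2.48, adjusted p = 0.00504). The cause was not tested.

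Without the tumor block, which pairs the libraries of a mass, the genes called early and late against early were 0 and 0, in place of 1 and 2, and the late values of MMP2 and TIMP1 were 0.62 and 1.19. No member was called late against before in that fit either. It cannot speak to the call of TIMP3, because it does not hold the comparison of RV with the mammary tumors. Early and late against early, members carry no test.

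Genes called early were 956 with DESeq2, 17 with no filter, and 0 with other size factors, the dog as block, late RV sites summed, either set of libraries removed, or a tumor left out (0 to 0). Late, DESeq2 called 7. Late against early, 4809 were called with DESeq2, 1081 with no filter, 373 with offsets, and 0 with the dog as block, the sites summed, either set of libraries removed, or a tumor left out (0 to 0). RV against mammary gave 4435 without the RV 2-day library, 3743 with DESeq2, 459 with the sites summed, 384 without the 3 CL libraries, and 594 to 1244 with a tumor left out. For genes of the 6 lists other than the members, DESeq2 called 10 early and 19 late against early, where offsets gave 4 and no filter 5, against 0. In RV against mammary the members were counted too. There 28 genes were called without the RV 2-day library and with DESeq2, 4 with the sites summed, and 3 without the 3 CL libraries. With a tumor left out 4 to 15 were called, against 9 in the main fit, TIMP3 among them. Members higher early in every tumor numbered 3 to 5 with a tumor left out, 5 without RV or BM, and late 1 with other size factors or the injection site alone.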

Other observations

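In BM at 3 weeks, osteoclast markers summed to 915 CPM against 6.36 CPM before treatment and 27.3 CPM at 1 week, while neutrophil markers summed to 110 CPM. In cranial CL the osteoclast sum was 206 CPM before treatment and 23.0 CPM at 1 month. In BM the late log2 difference was 7.99 for MMP9, the gelatinase B gene, 4.03 for the collagenase gene MMP13, and 3.36 for PLG, which encodes plasminogen. These 3 genes were named after their values were seen, and the part of any cell type in them was not tested. Their levels are not given here, so a pretreatment value near the floor cannot be seen. For MMP9 the late difference was -0.60 in RV, -3.69 in cranial CL, and 0.32 in caudal CL. That of MMP13 was 3.75 in cranial CL, 0.16 in RV, and -1.15 in caudal CL, and that of PLG was -0.37 in RV, -1.57 in cranial CL, and -0.96 in caudal CL.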
